A study of Mus musculus with 4 samples.

Results

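Antigen presentation by MHC class II was followed through 8 genes, H2-Aa, H2-Ab1, H2-Eb1, H2-DMa, H2-DMb1, H2-DMb2, Cd74 and Ciita, in tumor-associated macrophages (TAMs) of WT mice and of mice labelled as lacking Trim24. They are 8 of the 16739 genes with a value in any library, and all 8 passed the filter on low counts that left 11302 genes. The genes were chosen by symbol with the expected counts and FPKM of these 4 libraries, and the difference between the groups, already known. Their values and fold changes are therefore given as a description. No p-value is given for them, and the counts of how many passed a threshold describe the fits and are no independent evidence of a difference.

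MHC class II molecules are pairs of an alpha and a beta chain that show peptides from endosomes and lysosomes to CD4+ T cells. In the endoplasmic reticulum the pair binds the invariant chain, the product of Cd74, which fills the peptide groove and directs the complex to endosomes. Proteases then trim the invariant chain to a fragment called CLIP, and H2-DM, itself made of an alpha and a beta chain, exchanges CLIP for peptide. Transcription of the class II, H2-DM and Cd74 genes depends on the transactivator Ciita, which binds no DNA itself but docks on proteins bound to the X and Y boxes of the promoters. Macrophages carry little class II at rest and more after exposure to interferon-gamma.

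RNA was sequenced from CD45+ CD11b+ cells positive for the macrophage antigen that Adgre1 encodes, sorted by FACS on day 16 from subcutaneous B16-F10 tumors, a mouse melanoma line of C57BL/6 origin. The 2 WT libraries carry the genotype label wild type, and the 2 others the label Trim24-/-; the latter are titled KO, are described as Trim24-deficient and are called KO-labelled TAMs here. The study made these mice as Trim24 flox/flox LysM-Cre, in which Cre is driven by the lysozyme M locus of myeloid cells, so that other cells of the host kept Trim24. All mice were C57BL/6 and 6 to 8 weeks old at inoculation, and the controls were WT littermates. Whether the controls carried Cre, and whether a library came from 1 mouse or a pool, is not given in the sources used here. Adjusted p-values below thus set the difference between the groups against the spread between these samples only. With 2 libraries per group, the fits take part of that spread from the other genes.

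Library totals lay between 4476122 and 5172407 expected counts, so that 3 counts correspond to 0.606 to 0.639 CPM (counts scaled to the TMM-adjusted library total). Trim24 itself was at 5.86 and 2.08 CPM in WT TAMs and at 3.41 and 0.411 CPM in KO-labelled TAMs, so the groups overlapped. The name KO-labelled therefore stands for the label alone. These values rest on 28.8 and 10.2 expected counts in WT and 16.1 and 2.0 in the others. Counts per gene do not show which exons were read, so the overlap is no test of the deletion. Xist was at 6.46 to 10.9 CPM in the WT libraries and 256 to 437 CPM in the others, and the Y-linked Ddx3y at 73.7 to 102 CPM and 0.411 to 0.426 CPM. The study describes sex-matched mice. In these libraries the sex-linked transcripts and the genotype label split the libraries in the same way, so sex and genotype cannot be told apart for any gene below. The 7 macrophage genes and sort antigens summed to 5788 to 5913 CPM in WT and 6950.0 to 7036 CPM in the others, and 0 of 7 passed by edgeR or DESeq2 (2 at an unadjusted p under 0.05). All 7 had log2 fold changes above 0, and the 2 were Itgam at 0.65 and Fcgr1 at 0.54 (standard errors 0.29 and 0.20). Over both groups, Csf1r was at 1316 to 1573 CPM, Adgre1 at 1038 to 1304 CPM and Cd68 at 1541 to 2137 CPM.

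The classical class II chains were among the more abundant transcripts of WT TAMs and stood higher in both KO-labelled libraries. H2-Ab1, the beta chain of the I-A molecule, had an FPKM (fragments scaled to transcript length and library total) of 912 and 652 in WT replicates 1 and 2, and of 3556 and 3141 in KO-labelled replicates 1 and 2. Both of the latter were above both WT libraries, and the gap between the nearest libraries was 3.76-fold in CPM. Its log2 fold change from edgeR was 2.24 (standard error 0.26). H2-Aa, the alpha chain that pairs with it, had an FPKM of 620.02 and 396 in WT and of 2075 and 1200.2 in KO-labelled TAMs. Its log2 fold change was 1.83 (standard error 0.33), with a gap of 2.12-fold in CPM between the nearest libraries. Within the KO-labelled group, H2-Aa was 1.70-fold higher in CPM in replicate 1 than in replicate 2, whereas H2-Ab1 differed by 1.11-fold.

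H2-Eb1 encodes the beta chain of I-E. C57BL/6 mice make no I-E alpha chain, so this transcript has no partner there, and H2-Ea was listed in none of the 4 tables. Its FPKM was 354 and 256 in WT TAMs and 1400.0 and 773 in KO-labelled TAMs, a log2 fold change of 1.97 (standard error 0.32). As for H2-Aa, KO-labelled replicate 1 was the highest of the 4, at 1.78-fold the CPM of replicate 2.

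Cd74, the invariant chain, was the most abundant of the 8 genes. Its FPKM was 2377 and 1927 in WT TAMs and 8395 and 7128 in KO-labelled TAMs, with a log2 fold change of 2.0 (standard error 0.26). By FPKM it ranked 22 and 24 among all genes in the WT libraries and 5 in both others. It took 0.300% and 0.244% of all expected counts in WT and 1.06% and 0.902% in KO-labelled TAMs. All 8 genes together took 0.585% and 0.440% of the counts in WT and 2.06% and 1.61% in the others. Since these are bulk samples, more cells that carry class II and more RNA per cell cannot be told apart in KO-labelled TAMs.

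**Figure D1:**
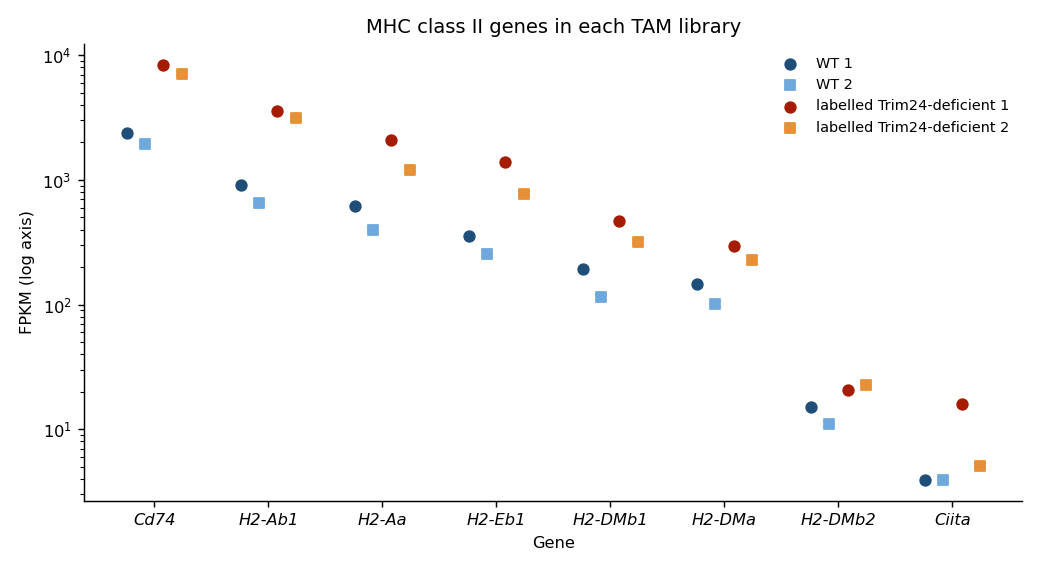
FPKM of the 8 MHC class II genes (log axis) in each of the 4 TAM libraries, with 1 point per library, coloured by group and replicate. Both KO-labelled libraries lie above both WT libraries for each gene, from Cd74 at 1927 to 8395 FPKM down to Ciita at 3.91 to 15.9 FPKM.

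The peptide exchange factor H2-DM stood higher as well, but by less. H2-DMa, its alpha chain, had an FPKM of 147 and 102 in WT TAMs and of 295 and 228 in KO-labelled TAMs, a log2 fold change of 1.21 (standard error 0.25). H2-DMb1, its main beta chain by level, had an FPKM of 192 and 116 in WT and of 470.19 and 318 in the others, a log2 fold change of 1.5 (standard error 0.30). For both genes WT replicate 1 was above WT replicate 2, by 1.504-fold and 1.73-fold in CPM, and no KO-labelled library fell within the WT range.

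H2-DMb2, a second beta chain gene next to H2-DMb1, was far lower, with expected counts of 55.3 and 37.4 in WT and 77.7 and 89.6 in KO-labelled TAMs. Its FPKM was 15.0 and 10.9 in WT and 20.6 and 22.6 in the others, and its log2 fold change of 0.90 (standard error 0.31) was the smallest of the 8. The value is uncertain because the genes are near-identical in part. Of all 50-base windows of the H2-DMb2 transcript in GENCODE, 26.8% are also in that of H2-DMb1. The model behind the deposited values had 786 bases for H2-DMb2 against 1284 for H2-DMb1, while GENCODE gives 1424 and 1404 bases. As a share of the reads of both beta genes, H2-DMb2 was 4.48% and 5.37% in WT TAMs and 2.57% and 4.09% in KO-labelled TAMs. Summed to 1 feature, both beta genes had a log2 fold change of 1.47.

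Ciita, on chromosome 16, was uneven within the KO-labelled group. Its expected counts were 104 and 96 in WT TAMs, and 430.0 and 143 in KO-labelled TAMs, with an FPKM of 3.91, 3.92, 15.9 and 5.02 in the same order. Replicate 1 of KO-labelled TAMs stood alone at 3.12-fold the level of replicate 2, which was 1.40-fold above the higher WT library. The WT libraries differed by 1.05-fold. The log2 fold change was 1.56 (standard error 0.44), the widest error of the 8, and was 0.52 without KO-labelled replicate 1 and 2.16 without KO-labelled replicate 2. Over the same omissions H2-Ab1 moved only between 2.16 and 2.32, and Cd74 between 1.89 and 2.10. In the library with 5.02 FPKM of Ciita, H2-Ab1 was at 3141 FPKM, against 912 FPKM in WT replicate 1 with 3.91 FPKM of Ciita.

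**Figure D2:**
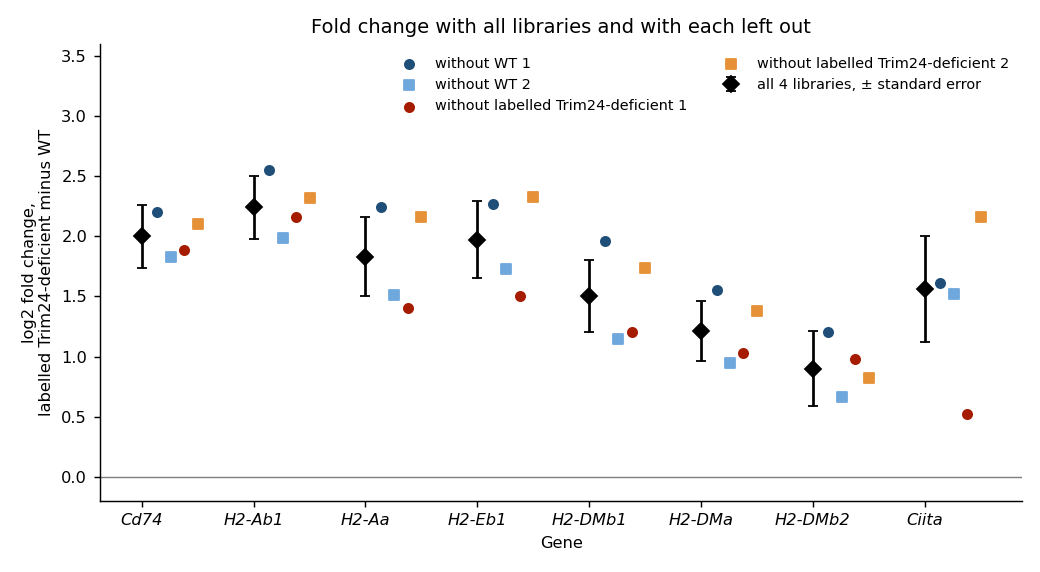
Log2 fold change of each gene (KO-labelled TAMs minus WT) from edgeR with all 4 libraries (black diamonds, bars are standard errors) and with 1 library left out (coloured points). Every value is above 0, and the widest range is that of Ciita, from 0.52 to 2.16.

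The study called genes at over 1.5-fold and a false discovery rate under 0.05. By edgeR's quasi-likelihood test at that threshold (Benjamini-Hochberg), 3 of the 8 genes were called higher (H2-Ab1, H2-Eb1 and Cd74), where 0.292% of all 11302 genes were called higher. Non-overlapping groups, with KO-labelled TAMs on the higher side, were seen for 8 of the 8 genes, and for 21.4% of all genes tested. The median log2 fold change was 1.69 for the 8 genes and -0.01 for all genes. Nothing is read from these counts, as the genes were taken up with this difference known. DESeq2 called 7 of the 8 genes, all but H2-DMb2 (1.17% of all genes higher), and limma on log2(FPKM + 1) and log2(FPKM + 0.1) called H2-Ab1 alone (0.126% and 0.0992%). Library totals without TMM left H2-Ab1 and Cd74 (0.195%), no filter on low counts added H2-Aa to make 4 (0.312%) and a filter of 10 counts in every library 3 (0.296%). Leaving out WT replicate 2 left H2-Ab1 alone past the threshold, where 0.18% of all genes were called higher. Without WT replicate 1, 5 of the 8 genes passed (0.444% of all genes higher), without KO-labelled replicate 1 6 (2.18%), and without KO-labelled replicate 2 7 (3.74%).

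By level, the order of the 8 genes was the same in each of the 4 libraries, with Cd74 first, then H2-Ab1, H2-Aa, H2-Eb1, H2-DMb1, H2-DMa, H2-DMb2 and Ciita by FPKM. In WT TAMs the means were 2152 ± 318 FPKM for Cd74, 782 ± 184 for H2-Ab1, 508 ± 158 for H2-Aa, 305 ± 68.8 for H2-Eb1, 154 ± 53.8 for H2-DMb1, 124 ± 31.8 for H2-DMa, 12.95 ± 2.86 for H2-DMb2 and 3.92 ± 0.0071 for Ciita (SD, n = 2). Of these neighbours, H2-DMb1 and H2-DMa overlapped between libraries. In KO-labelled TAMs the means were 7761 ± 896 FPKM for Cd74, 3348 ± 294 for H2-Ab1, 1638 ± 619 for H2-Aa, 1086 ± 444 for H2-Eb1, 394 ± 107 for H2-DMb1, 261 ± 47.5 for H2-DMa, 21.6 ± 1.40 for H2-DMb2 and 10.5 ± 7.69 for Ciita (SD, n = 2), and here H2-Aa and H2-Eb1 overlapped.

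Ratios of FPKM within a library do not depend on how libraries are scaled to each other, and set the genes against each other. H2-DMa per H2-Ab1 was 0.161 and 0.156 in WT TAMs and 0.0829 and 0.0725 in KO-labelled TAMs, so the groups did not overlap. H2-Aa per H2-Ab1 was 0.680 and 0.607 in WT and 0.584 and 0.382 in the others, with the lowest value in KO-labelled replicate 2. Likewise H2-Eb1 per H2-Ab1 was 0.388 and 0.393 in WT, 0.394 in KO-labelled replicate 1 and 0.246 in replicate 2, so H2-Eb1 stood low against H2-Ab1 in 1 library of its group. Cd74 per H2-Ab1 was 2.61 and 2.95 in WT and 2.36 and 2.27 in the others, and H2-DMb1 per H2-DMa was 1.31 and 1.14 against 1.595 and 1.40. No test was made, since the smallest exact two-sided permutation p for 2 libraries against 2 is 0.333. Ciita per H2-Ab1 was 0.00429 and 0.00601 in WT and 0.00447 and 0.00160 in KO-labelled TAMs, so the groups overlapped. Ciita per H2-Aa overlapped as well, at 0.00631 and 0.00990 in WT and 0.00766 and 0.00418 in KO-labelled TAMs. The ratios with H2-Eb1, H2-DMa and Ciita were chosen after the values were seen.

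**Figure D3:**
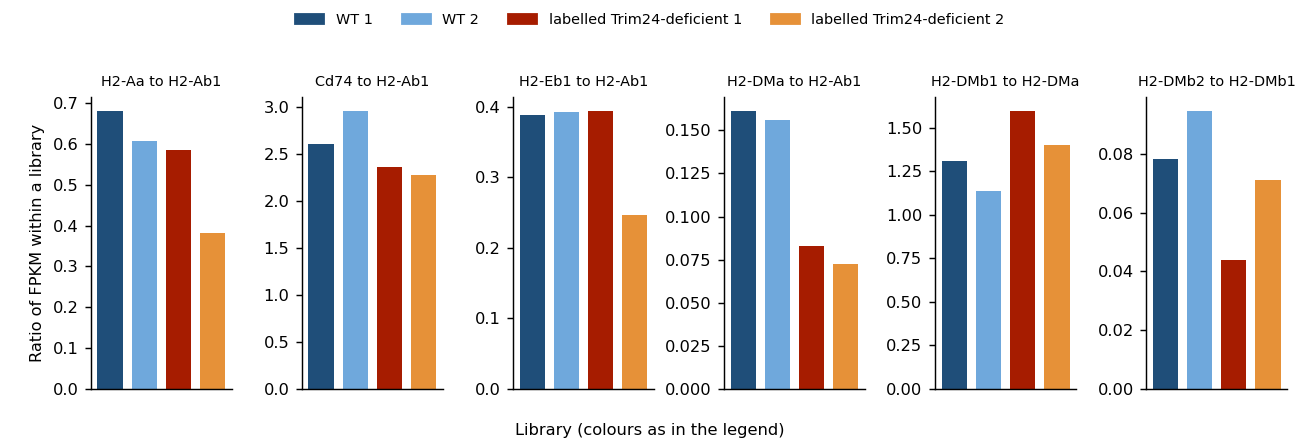
Ratio of the FPKM of pairs of MHC class II genes within each library (bars from 0, 1 bar per library, a separate axis per ratio). The H2-DMa to H2-Ab1 ratio is 0.156 or more in WT and 0.0829 or less in KO-labelled TAMs, and H2-Aa and H2-Eb1 are low against H2-Ab1 in replicate 2 of the latter.

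The genes other than Cd74 (chromosome 18) and Ciita (chromosome 16) lie within the class II region of chromosome 17, between 34092379 and 34344645 of GRCm38. H2-DMa spans 34119693 to 34139101, H2-DMb2 34143229 to 34151553, H2-DMb1 34153191 to 34160229, H2-Ab1 34263227 to 34269418, H2-Aa 34282744 to 34287823 on the minus strand and H2-Eb1 34305867 to 34316674. Of 13 genes tested in this region of 252 kb, 7 are not among the 8 genes, and 0 of the 7 passed edgeR's threshold. Psmb9, Tap1, Psmb8 and Tap2, which supply peptide to MHC class I, lie between H2-DMb1 and H2-Ab1 and had log2 fold changes of 0.79, 1.0, 0.78 and 0.83 (standard errors 0.28, 0.28, 0.23 and 0.21). Their adjusted p-values from edgeR's quasi-likelihood test were 0.296, 0.201, 0.214 and 0.168, while each had an unadjusted p under 0.05. With DESeq2, Tap1 (adjusted p = 0.0298) and Psmb8 (adjusted p = 0.0487) passed, and over all alternatives the adjusted p ran from 9.38e-05 to 0.999 for Tap1 and from 0.00338 to 0.999 for Psmb8. H2-Oa and H2-Ob encode H2-DO, an inhibitor of H2-DM known from B cells. Both were low, at 1.41 to 2.98 CPM and 4.11 to 10.2 CPM, with log2 fold changes of 0.33 and 0.45 (standard errors 0.65 and 0.49). Brd2, a neighbour of H2-DMa that was named after its values were seen, differed by -0.17 on the log2 scale (standard error 0.20).

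**Figure D4:**
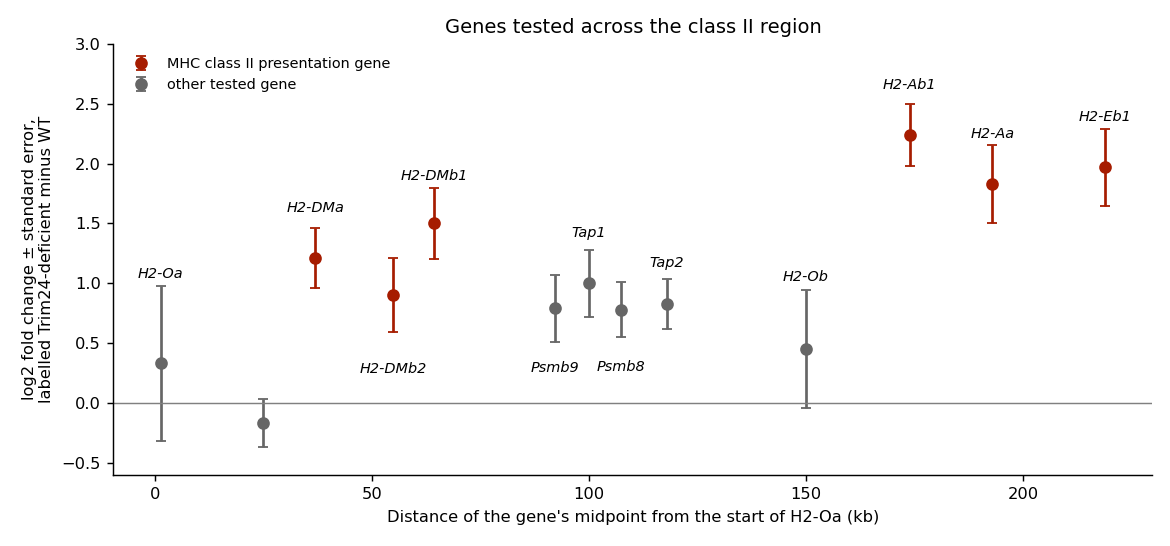
Log2 fold change (KO-labelled TAMs minus WT, bars are standard errors) of the 13 genes tested in the class II region, against the distance in kb of the gene's midpoint from the start of H2-Oa. The MHC class II presentation genes lie between 0.90 and 2.24, Psmb9, Tap1, Psmb8 and Tap2 between 0.78 and 1.0, and the unlabelled point is Brd2 at -0.17.

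The promoter sequences are shown because class II promoters are known for the X and Y boxes on which Ciita docks. No link between these boxes and the fold changes was tested. Of the 8 genes, 5 had an entry in the RefSeq promoters of GRCm38.p6 (250 bases before to 50 after the start), and H2-DMa had a pair of starts. H2-Ab1, Cd74 and Ciita had no entry. Both strands were searched for the X box core, bound by the RFX complex, and for the Y box core ATTGG, bound by NF-Y. These motifs do not overlap each other in the windows printed here. In capitals below are all matches, in the promoters of H2-Eb1 (chr17:34305617-34305916, plus strand), H2-Aa (chr17:34287774-34288073, minus strand), H2-DMb1 (chr17:34152941-34153240, plus strand) and H2-DMb2 (chr17:34144999-34145298, plus strand).
H2-Eb1: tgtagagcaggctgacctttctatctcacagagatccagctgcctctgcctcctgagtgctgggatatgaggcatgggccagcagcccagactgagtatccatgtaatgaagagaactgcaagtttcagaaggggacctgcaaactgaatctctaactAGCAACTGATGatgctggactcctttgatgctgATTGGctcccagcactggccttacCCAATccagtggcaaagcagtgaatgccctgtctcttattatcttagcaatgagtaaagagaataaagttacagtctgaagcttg
H2-Aa: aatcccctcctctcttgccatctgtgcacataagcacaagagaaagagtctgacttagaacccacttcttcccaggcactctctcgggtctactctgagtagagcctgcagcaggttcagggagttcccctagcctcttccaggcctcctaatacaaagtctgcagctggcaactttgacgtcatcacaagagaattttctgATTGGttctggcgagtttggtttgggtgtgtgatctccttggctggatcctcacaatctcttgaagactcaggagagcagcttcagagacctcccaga
H2-DMb1: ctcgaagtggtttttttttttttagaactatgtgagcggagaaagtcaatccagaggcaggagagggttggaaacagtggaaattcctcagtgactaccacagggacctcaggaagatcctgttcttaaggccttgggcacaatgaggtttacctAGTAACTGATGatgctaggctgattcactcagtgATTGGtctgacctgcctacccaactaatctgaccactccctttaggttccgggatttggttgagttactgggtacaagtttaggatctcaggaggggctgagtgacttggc
H2-DMb2: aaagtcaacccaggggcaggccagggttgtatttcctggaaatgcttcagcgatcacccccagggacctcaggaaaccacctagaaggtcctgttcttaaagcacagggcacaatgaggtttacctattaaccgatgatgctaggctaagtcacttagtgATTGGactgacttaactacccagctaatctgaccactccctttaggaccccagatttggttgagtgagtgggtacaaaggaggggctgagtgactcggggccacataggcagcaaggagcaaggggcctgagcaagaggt
The X box core stood in 0.968% of all 32851 promoters and the Y box core in 37.4%. An X box core followed on its own strand by a Y box core 10 to 40 bases after its end stood in 11 of them, 0.0335%, among which were H2-Eb1 (22 bases between), H2-DMb1 (23 bases between) and H2-Eb2 (22 bases between). The windows of H2-Aa and H2-DMb2 held the Y box core and no match to the X box core. Only exact matches were sought, so an X box that differs from the core by a letter would be missed. The windows of H2-DMa (34122582 to 34122881 and 34125268 to 34125567) lie inside the span of the gene given above, not at its ends. The first held neither core and the second held the Y box core alone. Whether TAMs use these starts was not tested, so nothing is read from them on the class II promoter of H2-DMa. All matches given here are matches of letters and say nothing of binding.

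Among the other genes of the pathway, 0 of the 35 tested (of 38 in the lists) passed edgeR's threshold in either direction, where 0.372% of all genes did. At an unadjusted p under 0.05 there were 13 of the 35, against 1379 of all 11302 genes, and DESeq2 called 4, with Cd40, Psmb8 and Tap1 among them, where it called 1.38% of all genes. The median log2 fold change of the 35 was 0.35.

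No difference was detected for the genes of the proteins that hold Ciita on class II promoters. Of the 6 tested genes for the RFX complex, Creb1 and NF-Y, 0 had an unadjusted p under 0.05, and 0 were called by DESeq2. Their log2 fold changes ran from -0.26 for Creb1 (standard error 0.19, edgeR quasi-likelihood adjusted p = 0.621) to 0.16 for Nfya (standard error 0.30, edgeR quasi-likelihood adjusted p = 0.867). Rfx5, the DNA-binding subunit of RFX, was at 8.48 and 7.50 CPM in WT TAMs and 11.1 and 5.34 CPM in KO-labelled TAMs, so the groups overlapped.

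Among genes of interferon-gamma signalling upstream of Ciita, the receptor chains, Jak1, Jak2 and Usf1 had log2 fold changes of -0.10 to 0.42. Irf1 and Socs1 lay above them. Irf1, a factor that acts on the Ciita gene, was at 214 and 116 CPM in WT TAMs and 510 and 212 CPM in KO-labelled TAMs, so the groups overlapped, with a log2 fold change of 1.13 (standard error 0.40). Socs1, an inhibitor of the Jak kinases, was at 33.5 and 14.8 CPM in WT and 88.6 and 38.0 CPM in the others, a log2 fold change of 1.39 (standard error 0.44, edgeR quasi-likelihood adjusted p = 0.239). KO-labelled replicate 1 was the highest of the 4 for both genes, as it was for Ciita and every other class II gene but H2-DMb2. The WT libraries lay apart for Irf1 and Socs1, whereas Ciita was at 21.0 and 20.0 CPM there. Of the factors acting on Ciita in myeloid and lymphoid cells, the log2 fold change was 0.05 for Spi1 (PU.1), 0.54 for Irf8 and 1.11 for Prdm1 (Blimp-1), a repressor of Ciita (standard errors 0.21, 0.22 and 0.41), and 0 of the 3 passed the threshold, by edgeR or DESeq2, with 2 at an unadjusted p under 0.05.

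Of the proteases and enzymes that prepare the invariant chain and peptides, 0 of 7 passed by edgeR or DESeq2, and 1 had an unadjusted p under 0.05. That was Ctss (cathepsin S), which makes the last cuts in the invariant chain, at 3031 and 2575 CPM in WT TAMs and 5011 and 4103 CPM in KO-labelled TAMs (log2 fold change 0.70, standard error 0.24, edgeR quasi-likelihood adjusted p = 0.275). At the other end was the aspartic protease Ctsd, at -0.16 (standard error 0.23). Marchf1, the ubiquitin ligase that removes class II from the surface, stood at 0.83 on the log2 scale (standard error 0.26, edgeR quasi-likelihood adjusted p = 0.240), and its relative Marchf8 at -0.25 (standard error 0.20). The costimulatory Cd40 was at 66.0 and 46.7 CPM in WT and 151 and 95.6 CPM in the others, a log2 fold change of 1.13 (standard error 0.26, edgeR quasi-likelihood adjusted p = 0.141), while Cd80 and Cd86, which engage CD28 on T cells, had 0.94 and 0.60 (standard errors 0.45 and 0.19).

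**Figure D5:**
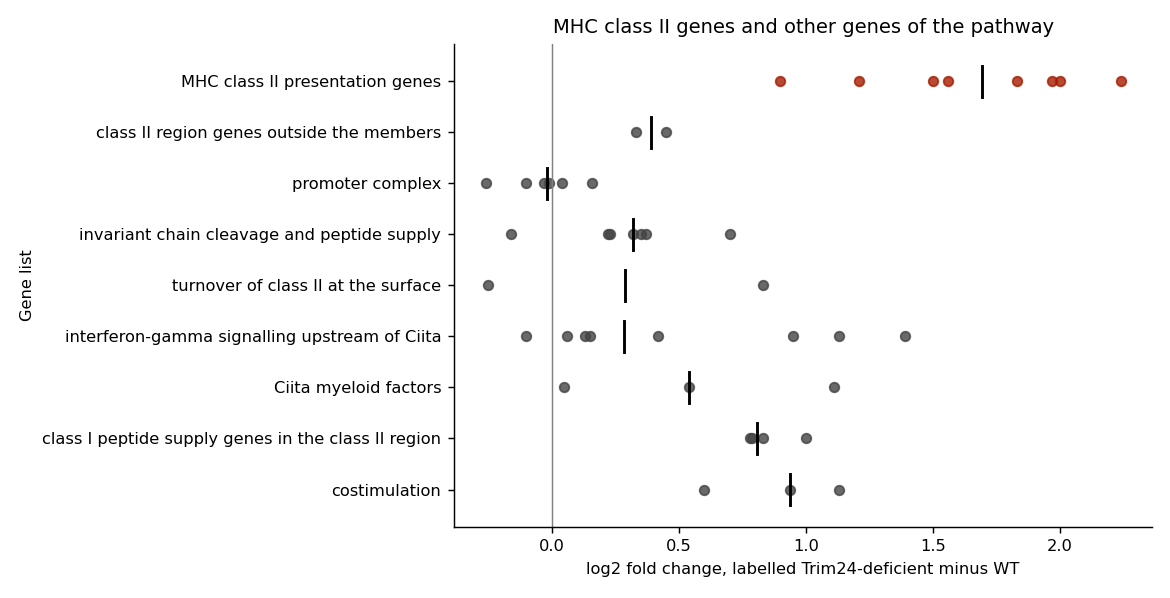
Log2 fold change (KO-labelled TAMs minus WT) of each tested gene in the MHC class II set and in 8 other lists of the pathway, with 1 point per gene and a vertical line at the list median. The class II genes have a median of 1.69, the promoter complex of -0.02 and the class I peptide supply genes of 0.81.

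Dendritic cells and B cells also carry class II, so their markers were read beside these results. The 8 markers of conventional dendritic cells summed to 54.1 and 51.7 CPM in WT TAMs and to 87.1 and 41.9 CPM in KO-labelled TAMs, so the groups overlapped, and 0 of the 6 tested passed by edgeR or DESeq2 (1 at an unadjusted p under 0.05). In KO-labelled replicate 1, 4 of the 8 markers were above the range of the WT libraries, 2 within it and 2 below. The 4 above were Clec9a (14.5 CPM, WT 1.04 to 3.64), Xcr1 (46.4 CPM, WT 16.3 to 22.4), Dpp4 (7.67 CPM, WT 5.25 to 6.67) and Itgae (1.07 CPM, WT 0.808 to 0.833), and the 2 below were Flt3 and Cd209a (3.20 CPM, WT 3.64 to 11.7). In KO-labelled replicate 2, 1 marker was above the WT range, 2 were within it and 5 below. The 1 above was Ccr7 (17.5 CPM, WT 7.50 to 13.5), and of those below, Clec9a had the same expected count of 5 as WT replicate 2. The part of these cells in the levels of Ciita and the other class II genes was not tested. Flt3, a receptor of dendritic cells and their precursors, was at 3.84 and 5.42 CPM in WT and 1.28 and 0.206 CPM in the others (log2 fold change -2.61, standard error 0.73, edgeR quasi-likelihood adjusted p = 0.207).

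The 5 B cell markers summed to 46.3 to 55.3 CPM in WT TAMs and 51.6 to 55.4 CPM in KO-labelled TAMs, nearly all of it Cd79b at 43.1 to 53.7 CPM. Pax5 was listed in none of the libraries. The 5 neutrophil markers summed to 175 and 206 CPM in WT and to 269 and 398 CPM in the others, with 0 of 4 passing by edgeR, 2 by DESeq2 (S100a9 and Csf3r) and 3 at an unadjusted p under 0.05. Cxcr2 went the other way, at 63.6 and 84.0 CPM in WT and 42.8 and 76.9 CPM in the others (log2 fold change -0.30, standard error 0.28). The part of neutrophils in the class II levels was not tested. The 7 T and NK cell markers summed to 48.3 to 56.9 CPM in WT and to 120 and 37.6 CPM in the others (0 of 5 tested passed by edgeR or DESeq2, and 0 had an unadjusted p under 0.05). In KO-labelled replicate 1, 6 of the 7 were above the WT range and 1 within it. In replicate 2, 1 was above the range, 3 were within it and 3 below. Melanoma genes summed to 740 to 783 CPM in WT and 585 to 789 CPM in the others, with 0 of 6 passing by edgeR or DESeq2 and 1 at an unadjusted p under 0.05. Much of the sum was Tyr, at 411 and 424 CPM in WT and 375 and 496 CPM in the others. Of the 6 genes, 5 were below the WT range in KO-labelled replicate 1 and 4 in replicate 2, with 1 above in each. Their median log2 fold change was -0.43, and the part of tumor RNA in the class II levels was not tested.

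The genes most like the MHC class II set were sought by the distance between a gene's centred log2 CPM and the median of the 8 genes, over the 4 libraries. Among genes whose log2 CPM averaged 3 or more, the nearest was Clec7a (dectin-1, a receptor for fungal glucans), at a distance of 0.197, with 63.0 and 44.8 CPM in WT TAMs and 189 and 133 CPM in KO-labelled TAMs. Next came Il18bp, which binds and blocks interleukin-18, at 0.233, Plac8 at 0.239, Mgarp at 0.246, Gpr141 at 0.266, Tlr12 at 0.273, Clic5 at 0.292 and Ifitm6 at 0.322. Mgarp, Tlr12 and Clic5 were low in WT TAMs, at 2.5 to 5.45 CPM, so their distances are less certain. Among the class II genes themselves, the distance was 0.167 for H2-Aa, 0.261 for H2-Eb1 and H2-DMb1, 0.441 for Cd74, 0.534 for H2-DMa, 0.642 for H2-Ab1, 0.881 for Ciita and 1.01 for H2-DMb2. Several genes outside the set were thus nearer to its median than Ciita or H2-Ab1 were. The likeness rests on 4 libraries and is a description, in which genes with the same difference between the groups come out near each other.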

How the data were processed

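RNA-seq of sorted TAMs from 2 WT and 2 Trim24-/- labelled samples was analysed. Alignment by the authors used Bowtie and GRCm38 (mm10). RSEM then gave the deposited expected count of each gene (not normalized, 77.1% of values whole), its transcript length and its FPKM, which the authors' run scaled to length and library total. A gene missing from a table was taken as 0. Of 16739 genes, 16698 matched a symbol by Entrez identifier.

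Expected counts were rounded, filtered (filterByExpr), scaled by TMM and tested over 11302 genes with edgeR 4.0.16 in R 4.3.3 (glmQLFit, glmQLFTest, Benjamini-Hochberg), with the label as the only term and calls at over 1.5-fold and a false discovery rate under 0.05. Standard errors are the absolute log2 fold change over the root of the F statistic. CPM uses the TMM-scaled totals. The floor of 3 counts covers counting error only. The edgeR step was also run on simulated counts drawn from its own fit. Those counts hold no split by sex and no uneven library, so the run is no check on either. Alternatives were DESeq2 1.42.0, library totals, other filters (none, or at least 10 counts in every library), limma 3.58.1 on log2(FPKM + 1) and log2(FPKM + 0.1) (genes at FPKM 1 or more in 2 or more libraries), the replicate number as a block, summed H2-DMb1 and H2-DMb2 and each library left out.

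The 8 genes, the lists of other genes and the markers were chosen with earlier results of these data known. Named are all 8, genes of the lists (those past the threshold and the extremes with full values), label checks, and the 8 genes nearest in centred log2 CPM (pseudocount 0.5, mean log2 CPM of at least 3). Some genes of these lists are not reported here.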

Additional observations from a re-analysis of the deposited data

How the results depend on the processing

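Every log2 fold change of the 8 MHC class II genes stayed above 0 under each alternative, and 92 of 95 values moved by less than 1 SD between replicates. That SD comes from 2 libraries per group, and is wide for Ciita. Leaving 1 of 2 libraries out moves a group mean by about this SD at most. The count of 92 is therefore no measure of stability. H2-Ab1 and H2-DMb2 moved more without WT replicate 1 (2.55 and 1.2), and Ciita without KO-labelled replicate 1 (0.52), while the counts of calls depended on the test. DESeq2 called 156 of all genes, 7 of the 8 class II genes (1.17% of all genes higher) and 4 other pathway genes. Limma on log2(FPKM + 1) called 23 genes and on log2(FPKM + 0.1) 20, and in each 1 class II gene, H2-Ab1, passed, at 0.126% and 0.0992% of all genes higher. Library totals without TMM shifted the median log2 fold change of all genes to -0.15 and left 2 class II genes, H2-Ab1 and Cd74 (0.195% higher). With 1 library left out, where a lone sample is assumed to vary like the other group, the number of genes called ran from 25 (without WT replicate 2) to 652 (without KO-labelled replicate 2), that of class II genes from 1 to 7, that of other pathway genes from 0 to 9 and the median of the class II genes from 1.30 to 2.13.

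Replicate numbers 1 and 2 occur in each group. Deviations of same-numbered libraries correlated at 0.165 across genes, and with 2 pairs this does not show that the numbers pair the samples. With the replicate number as a block, 634 genes, 7 class II genes (3.76% of all genes higher) and 11 other pathway genes passed, but this fit took the spread wholly from all genes. A value limited by depth is that of H2-DMb2, at 37.4 to 89.6 expected counts.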
